A study of Homo sapiens with 12 samples.

Results

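The response to 15d-PGJ2 (15-deoxy-Δ12,14-prostaglandin J2) in cells with the wild-type glucocorticoid receptor was measured on 6 of the 12 arrays of the series, chosen by their titles. The 3 control arrays, numbered 1 to 3, are wtGR cells given 100 nM dexamethasone alone for 6 h. The 3 treated arrays are wtGR cells given the same dexamethasone together with 5 µM 15d-PGJ2 for 6 h. The cells are HEK293, an immortalised human embryonic kidney line, in an isogenic form that stably expresses wild-type glucocorticoid receptor (wtGR) and is kept under hygromycin. The other 6 arrays, from an isogenic line expressing a receptor whose SUMO attachment is disabled (GR3KR), received the same treatments. All cells spent 36 h in medium with 2.5% charcoal-stripped serum, which is depleted of steroids, before treatment. All groups therefore carry dexamethasone, and no array gives a level without it. Each receptor form is represented by 1 line. Nothing in the labels says whether the 3 samples of a group are separate cultures, so the p-values reflect the spread of these samples alone, which may be technical.

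15d-PGJ2 is a cyclopentenone prostaglandin whose reactive ring forms covalent bonds with cysteines of many proteins. Among the responses it is known for are activation of heat shock factor 1, which drives chaperone genes when proteins are damaged, activation of NRF2, which drives antioxidant genes once its inhibitor KEAP1 is modified, inhibition of NF-kB, and binding to PPARγ. Dexamethasone is a synthetic glucocorticoid that sends its receptor, held in the cytoplasm by an HSP90 chaperone complex, to the nucleus, where the receptor switches target genes on or off. The comparison thus asks what the electrophilic lipid did to transcripts in cells that were given dexamethasone together with it.

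Levels below are normalized log2 intensities of 1 probe per gene for 11913 genes, and a difference is the treated mean minus the control mean with its standard error (SE). A level compares arrays for 1 gene and not genes with each other. Genes with an adjusted p under 0.05 by limma, with Benjamini-Hochberg adjustment over all 11913, are called. Between 18392 and 19950 of 47312 probes were detected per array, the fewest on control array 3. On that array 131 genes lay more than 2 log2 units below both other controls, and on treated array 3 there were 101 such genes, against 0 to 1 on the other arrays. Of the genes whose difference exceeded 1, 114 had overlapping groups, and in 107 of these control array 3 was the lowest control. Differences are therefore given with the overlap of the groups. Where the groups lay apart and another probe of the gene was available (680 genes), its difference had the same sign in 466 (68.5%). Over all 3070 genes that could be checked in this way the share was 61.2%. The Pearson correlation between the differences of the 2 probes was 0.35. The direction read from 1 probe is thus uncertain, even where the groups do not overlap. Of 12 listed HEK293 markers 10 were kept. Among the filament genes NEFL, INA, VIM and KRT8 were detected on all 6 arrays, but KRT18 on 3 and NEFM on 2. PAX2 was detected on 0. Of 11 kidney tubule markers 0 were kept. Of 10 leukocyte markers 4 were kept: the monocyte and macrophage genes CD14 and CD68 and the antigen-presentation gene HLA-DRA were detected on 6 arrays and CD74 on 5, while the defining markers PTPRC and CD3E were detected on 0. Of 6 endothelial markers 1 was kept, VWF on 3 arrays, with PECAM1 and CDH5 on 0, and of 10 fibroblast markers 1 was kept, COL1A1 on 6 arrays, with COL1A2 and DCN on 0.

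15d-PGJ2 changed 9 genes in the 6 wtGR arrays, 0.0755% of those tested: 7 rose (0.0588%) and 2 fell (0.0168%). The 7 that rose were HSPA6, HSPA7, DNAJB1, HSPA1B, HSPA1A and HSPH1, all of the heat shock chaperone system, and HMOX1, the gene of haem oxygenase 1, which breaks down haem. The 2 that fell were MIR503HG, a long non-coding RNA, and KCNA5, a voltage-gated potassium channel. When the 3 GR3KR dexamethasone arrays joined the fit to estimate the spread, the same contrast called 135 genes, 1.13% of those tested, and all 9 were among them. Of the 135, 61 were higher with 15d-PGJ2 (0.512%) and 74 lower (0.621%). The 3 treated arrays lay wholly above the 3 controls for 6.97% of all genes and wholly below for 14.1%, and the median difference over all genes was −0.07. Differences above 1 log2 unit were found for 169 genes and below −1 for 56. Below, "called" refers to the 6-array fit unless the 9-array fit is named. Counts of list members wholly above or wholly below the controls are to be read against the shares of all genes, 6.97% and 14.1%.

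**Figure D1:**
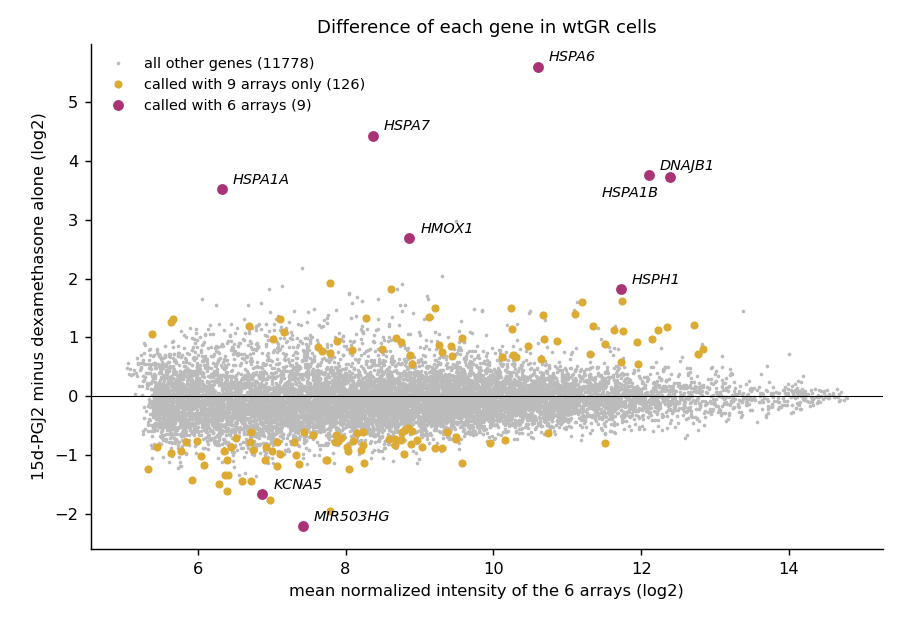
Difference in log2 intensity between 15d-PGJ2 plus dexamethasone and dexamethasone alone (vertical axis) against the mean log2 level (horizontal axis) for each of the 11913 genes in wtGR cells. The 9 called genes are named, and the 126 genes called only in the 9-array fit and the 11778 others are shown in separate colours. HSPA6 stands highest at 5.60 and MIR503HG lowest at −2.21.

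HSP70-family proteins bind unfolded stretches of other proteins, and 5 of the 11 measured members of the HSP70 and HSP110 family rose. HSPA6, a strictly stress-inducible HSP70, stood at 7.64, 7.73 and 8.05 on the control arrays and at 13.29, 13.68 and 13.25 on the treated arrays. The groups were more than 5 log2 units apart. Its difference was 5.60 (SE 0.19, adjusted p 0.00026 by limma), a 48.5-fold rise, against 4.92 in the authors' deposited log2 matrix, and a second HSPA6 probe differed by 4.75. HSPA7, annotated as a transcribed pseudogene next to HSPA6 and nearly identical to it, read 5.75, 6.15 and 6.57 in controls and 10.47, 10.85 and 10.44 with 15d-PGJ2. It rose by 4.43 (SE 0.24, adjusted p 0.0017 by limma), against 3.71 without background correction and 2.87 in the deposited matrix. Because the pair is so alike, the share of the HSPA7 signal that comes from HSPA6 transcripts is uncertain.

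HSPA1A and HSPA1B encode the same major inducible HSP70 protein. HSPA1A was at 4.60, 4.58 and 4.51 in controls, detected on none of them, and at 7.90, 8.16 and 8.19 on treated arrays. With control levels only a bound, the rise on this scale was at least 6.07-fold (adjusted p 0.00042 by limma). Its measured difference was 3.52 on this scale, 2.37 without background correction and 1.37 in the deposited matrix, so the bound does not carry over to those scales. HSPA1B read 11.24, 10.32 and 10.00 in controls and 14.48, 14.50 and 13.77 with 15d-PGJ2, a rise of 3.73 (SE 0.36, adjusted p 0.041 by limma). The groups were far apart, but without 1 array the adjusted p ranged from 0.0168 to 0.334 and passed only when control array 1 was the one removed. The coding sequences of the 2 genes are near-identical, so the split between them is uncertain. HSPH1, an HSP110 that recharges HSP70 by nucleotide exchange, rose by 1.82 (SE 0.19, adjusted p 0.048 by limma), from 10.93, 10.84 and 10.67 to 12.53, 12.97 and 12.39. Its call was lost whichever array was removed, with adjusted p between 0.0778 and 0.399.

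**Figure D2:**
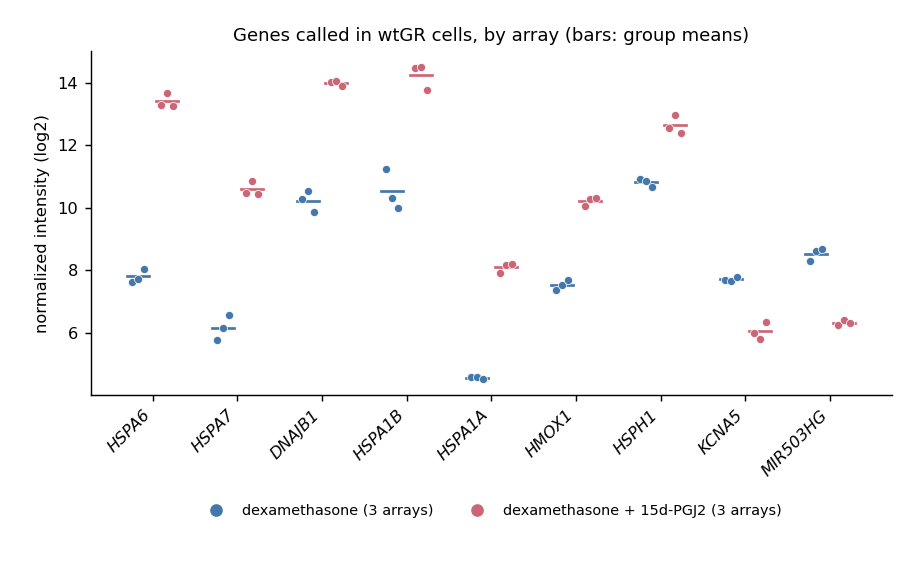
Normalized log2 intensity on each wtGR array for the 9 called genes, with control and treated arrays as separate points. Bars are group means. For each gene the 3 treated arrays lie apart from the 3 controls, above them for the 6 chaperone genes and HMOX1 and below them for MIR503HG and KCNA5.

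The other HSP70 members differed less. HSPA8, the constitutive cytosolic HSP70, stood at 12.51, 12.84 and 12.90 in controls and at 13.28, 13.50 and 13.50 with 15d-PGJ2, groups that do not overlap. Its difference of 0.68 (SE 0.16) had an adjusted p of 0.21, and 0.056 in the 9-array fit. HSPA4, a relative of HSPH1, differed by 0.56 and the mitochondrial HSPA9 by 0.24, neither called. Across the family all 11 measured members had positive differences, 8 of them without overlap, and the median difference was 0.75 against −0.07 for all genes.

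The promoters of 3 chaperone genes are printed because they carry the heat shock element, the motif bound by heat shock factors, and belong to genes whose calls held in every 5-array fit. Each is the 250 bases before the RefSeq start site (GRCh38.p14), written 5′ to 3′ on the gene's strand, with matches to GAANNTTC or TTCNNGAA on either strand in capitals.
HSPA6, chr1:161524290-161524539, plus strand: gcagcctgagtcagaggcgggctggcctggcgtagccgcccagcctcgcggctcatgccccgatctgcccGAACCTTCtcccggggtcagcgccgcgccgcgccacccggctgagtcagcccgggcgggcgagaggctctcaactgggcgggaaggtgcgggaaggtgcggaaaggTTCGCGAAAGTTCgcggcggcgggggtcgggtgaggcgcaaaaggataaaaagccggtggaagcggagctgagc
HSPA1A, chr6:31815293-31815542, plus strand: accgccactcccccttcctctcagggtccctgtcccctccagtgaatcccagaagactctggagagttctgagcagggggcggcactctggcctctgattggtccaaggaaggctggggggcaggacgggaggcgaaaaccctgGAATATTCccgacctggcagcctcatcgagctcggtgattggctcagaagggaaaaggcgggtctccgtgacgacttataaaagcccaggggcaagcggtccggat
DNAJB1, chr19:14518398-14518647, minus strand: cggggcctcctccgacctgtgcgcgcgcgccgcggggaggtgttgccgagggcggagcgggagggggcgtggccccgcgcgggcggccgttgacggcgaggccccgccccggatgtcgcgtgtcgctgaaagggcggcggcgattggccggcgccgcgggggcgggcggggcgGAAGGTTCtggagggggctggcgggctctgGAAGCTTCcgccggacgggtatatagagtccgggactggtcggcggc
HSPA6 held 3 matches, starting 180, 74 and 69 bases before the start site, and the last pair overlap in a single capital run. HSPA1A held 1 match, 106 bases before its start. DNAJB1 held 2, at 77 and 47 bases, and its 2 other annotated starts held 0. HSPA1B held 1 match, and HSPH1, KCNA5 and MIR503HG held 0 in this window.

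Promoter entries were found for 7 of the 9 called genes, with 9 start sites among them. The heat shock element occurred in 4 of those 9 windows (44.4%), against 9.16% of the 14039 windows of all tested genes with an entry. Among the 58 windows of genes higher in the 9-array fit it occurred in 10 (17.2%), and among the 109 windows of genes lower in it, in 7 (6.42%). An antioxidant response element core, TGACNNNGC on either strand, occurred in 17.2% of the windows of the higher genes, 10.1% of those of the lower genes and 11.9% of all. AGAACA, 1 arm of the paired sequence the glucocorticoid receptor binds, searched on both strands, occurred in 1.72%, 7.34% and 7.94% respectively. AGAACA followed by TTC also holds a heat shock element, so matches to the motifs can overlap, and a match is a string of letters and not a measured binding site.

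DNAJ proteins deliver clients to HSP70 and trigger its ATPase, and 1 of 12 measured cytosolic members was called. DNAJB1, the stress-inducible HSP40, stood at 10.29, 10.53 and 9.86 in controls and at 14.01, 14.07 and 13.89 with 15d-PGJ2. It rose by 3.76 (SE 0.20, adjusted p 0.0017 by limma), a 13.5-fold rise, with the treated arrays within 0.2 of each other. With all 12 arrays in the fit its adjusted p was 0.0817. DNAJA1, a farnesylated HSP40, also had groups apart, at 11.91, 12.33 and 12.44 against 12.76, 12.92 and 12.82. Its difference of 0.61 (SE 0.18) was not called, with an adjusted p of 0.26. The median of the 12 members was 0.11, and no other member passed in the 9-array fit.

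HSP90 holds the glucocorticoid receptor in its ligand-binding form, and 7 of 13 measured genes of the HSP90 system had all treated arrays above the controls, but 0 were called. STIP1, also named HOP, which hands clients from HSP70 to HSP90, read 10.99, 11.49 and 11.13 in controls and 12.29, 12.36 and 12.29 when treated. The difference of 1.11 (SE 0.17) had an adjusted p of 0.11, and it passed in the 9-array fit at 0.015. CHORDC1, an HSP90 co-chaperone, differed by 1.55 (SE 0.35, adjusted p 0.20, and 0.056 with 9 arrays). The HSP90 genes themselves differed little: HSP90AB1, the constitutive form, by 0.44, and HSP90AA1, the inducible form, by 0.12 (SE 0.13, adjusted p 0.71). FKBP4, an immunophilin that carries the receptor with HSP90, differed by 0.27 (SE 0.13, adjusted p 0.42). CACYBP, a protein that binds calcyclin and SIAH1, read 10.24, 8.35 and 5.42 in controls and 11.83, 11.91 and 9.20 when treated. In both groups array 3 was the lowest and the groups overlap, so that its difference of 2.98 carried an SE of 1.29.

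Small heat shock proteins hold unfolding proteins and BAG proteins couple HSP70 to degradation. Of 9 measured, 0 were called in the 6 arrays and 3 in the 9-array fit. CRYAB, the small heat shock protein αB-crystallin, stood at 7.81, 7.33 and 7.97 in controls and at 9.52, 9.71 and 9.37 with 15d-PGJ2, a difference of 1.83 (SE 0.20, adjusted p 0.057, and 0.031 with 9 arrays). BAG3, which sends HSP70 clients to autophagy, went from 10.32, 10.35 and 10.55 to between 11.67 and 12.32, a difference of 1.60 (SE 0.20, adjusted p 0.062, and 0.0067 with 9 arrays). The groups of both genes were more than 1 log2 unit apart. HSPB1, or HSP27, differed by 0.92 (SE 0.15) and passed with 9 arrays at 0.024, whereas HSPB8, the partner of BAG3, differed by 1.21 (SE 0.27) and did not, at 0.052. The 10 chaperonin genes, subunits of the folding rings and their mitochondrial relatives, had a median of 0.13 and 0 calls in either fit. CCT4 was the member with the smallest p (0.38, SE 0.14). Of 5 listed genes of heat shock factors and their regulator 2 were measured, the factor HSF4 and the regulator HSBP1. Both had negative differences and were not called. HSF1, the gene of heat shock factor 1, and HSF2 and HSF5 had no kept probe and were not measured.

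**Figure D3:**
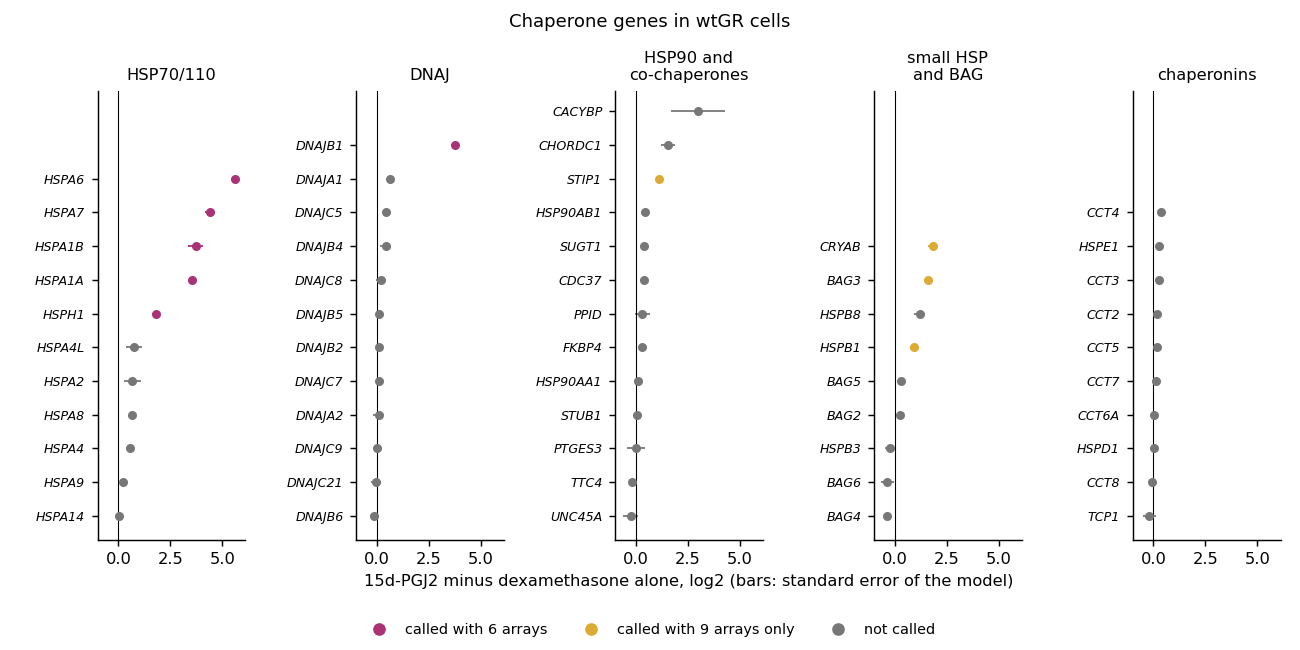
Treated minus control difference in log2 intensity, with its SE, for the measured chaperone genes in 5 panels by role: HSP70 and HSP110, DNAJ co-chaperones, HSP90 and co-chaperones, small heat shock and BAG proteins, and chaperonins. Each of the first 4 panels has a few genes far from 0, such as HSPA6 at 5.60, DNAJB1 at 3.76 and CRYAB at 1.83, with CACYBP at 2.98 under a wide error, while the 10 chaperonins lie within 0.5 of 0.

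Damaged proteins that are not refolded are tagged with ubiquitin, and adaptors take them to the proteasome or to autophagy. Of 20 measured genes of the ubiquitin and autophagy list 2 passed in the 9-array fit. ZFAND2A, also named AIRAP, a stress-induced regulator of the proteasome, read 9.22, 9.43 and 9.83 in controls and 11.01, 10.94 and 11.01 when treated, a difference of 1.49 (SE 0.18, adjusted p 0.062, and 0.014 with 9 arrays). SQSTM1, the autophagy receptor p62, went from 11.32, 11.75 and 11.92 to 12.83, 12.81 and 12.73, a difference of 1.13 (SE 0.18, adjusted p 0.13, and 0.019 with 9 arrays). Neither gene's groups overlap. The 30 measured genes of the proteasome list, which are subunits except for POMP and NFE2L1, had a median of −0.03 and no call in either fit. Treated arrays lay wholly above the controls for 0 of them and wholly below for 5 (16.7%). The latter is close to the 14.1% of all genes. PSMA2, a subunit of the core particle, differed by −0.59 (SE 0.16, adjusted p 0.25).

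HMOX1 was the only called gene outside the chaperones that rose. It stood at 7.36, 7.52 and 7.69 in controls and at 10.05, 10.27 and 10.30 with 15d-PGJ2. The arrays of a group lay within 0.4 of each other and the groups were over 2 apart. The rise of 2.68 (SE 0.15, adjusted p 0.0018 by limma), or 6.43-fold, was called in every fit with 1 array removed, and was 1.93 in the deposited log2 matrix. The haem and iron genes as a list did not share that direction: of 15 measured, 3 had all treated arrays above the controls and 6 below, and the median was −0.26. SLC40A1, or ferroportin, which exports iron from cells, was at 6.81, 7.01 and 7.29 in controls and at 5.54, 5.33 and 5.77 when treated. Its difference of −1.49 (SE 0.19) had an adjusted p of 0.063 and passed with 9 arrays at 0.0067. FTL, the ferritin light chain, which stores iron, differed by 0.52 (SE 0.19, adjusted p 0.33). CPOX, an enzyme of haem synthesis, differed by −0.82 (SE 0.13) and passed with 9 arrays at 0.0198.

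HMOX1 is also a target of NRF2, but the 19 measured NRF2 pathway genes had a median of 0.01, with 2 wholly above the controls and 0 below. MAFG, a small MAF protein that partners NRF2 on DNA, was at 8.22, 8.64 and 8.50 in controls and at 9.67, 9.77 and 9.98 when treated. The groups were about 1 apart, and the difference of 1.35 (SE 0.17, adjusted p 0.062) passed with 9 arrays at 0.013. NQO1, the quinone reductase often used to read NRF2 activity, stood at 6.61, 7.20 and 7.53 against 6.69, 7.15 and 7.24. Its groups overlap wholly, with a difference of −0.09 (SE 0.27, adjusted p 0.90). GCLM, the modifier subunit of the enzyme that limits glutathione synthesis, differed by 0.72 (SE 0.25, adjusted p 0.31) and TXNRD1, thioredoxin reductase, by 0.45 (SE 0.21, adjusted p 0.41). The 12 measured glutathione transferases, enzymes that conjugate electrophiles to glutathione, had a median of −0.17 and 0 calls. Of them 4 (33.3%) lay wholly below the controls, against 14.1% of all genes. GSTM1 was among these 4, at −0.65.

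Among the genes that fell, MIR503HG is the host transcript of the microRNA miR-503. It stood at 8.29, 8.60 and 8.68 in controls and at 6.25, 6.39 and 6.31 with 15d-PGJ2, with no overlap. It fell by 2.21 on the log2 scale (SE 0.15, adjusted p 0.0055 by limma), 4.62-fold lower, and by 1.15 in the deposited matrix. The call was lost without control array 2, treated array 1 or treated array 2, with an adjusted p of up to 0.0895. KCNA5, which encodes a delayed-rectifier potassium channel, was at 7.68, 7.67 and 7.78 in controls and at 5.98, 5.81 and 6.34 when treated. It fell by 1.67 on the log2 scale (SE 0.17, adjusted p 0.048 by limma), and by 0.74 in the deposited matrix. With 1 array removed KCNA5 passed only without treated array 3. Over the 19 measured potassium and calcium channel genes the median was −0.11, with 1 call, that of KCNA5.

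Of 24 measured Wnt, TGF-beta and BMP genes 1 was called lower with 9 arrays, SFRP2, and of 12 ephrins and ephrin receptors 1, EPHB1. SFRP2, a secreted antagonist of Wnt ligands, read 7.70, 7.77 and 8.11 in controls and 5.92, 5.89 and 6.47 when treated, a difference of −1.76 (SE 0.21, adjusted p 0.062, and 0.0067 with 9 arrays). EPHB1, a receptor for ephrin-B ligands, went from 8.78, 8.82 and 8.84 to 7.50, 7.52 and 8.02, a difference of −1.13 (SE 0.18, adjusted p 0.12, and 0.0198 with 9 arrays). In both the treated arrays lay wholly below the controls. Of the 24 Wnt, TGF-beta and BMP genes 7 lay wholly below and 0 above, with a median of −0.09, close to that of all genes. The 12 ephrins and ephrin receptors had a median of −0.07.

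The integrated stress response slows translation and raises ATF4 protein when misfolded proteins, lack of amino acids or haem deficiency activate its kinases. Of 35 measured genes 16 had all treated arrays above the controls and 4 below, with a median of 0.39. None was called in the 6 arrays, and 6 passed in the 9-array fit, all higher: PPP1R15A, DDIT3, TRIB3, SLC7A5, STC2 and CEBPB. DDIT3, or CHOP, a transcription factor of prolonged stress, went from 9.53, 9.65 and 9.88 to 10.87, 10.80 and 10.80, a difference of 1.14 (SE 0.15, adjusted p 0.066, and 0.016 with 9 arrays). TRIB3, a pseudokinase that restrains ATF4 and CHOP, went from 10.85, 11.04 and 11.30 to 12.22, 12.28 and 12.08, a difference of 1.13 (SE 0.16, adjusted p 0.10, and 0.011 with 9 arrays). PPP1R15A, or GADD34, which directs the phosphatase that ends the response, differed by 1.19 (SE 0.23), with 11.04, 10.45 and 10.76 in controls and 11.97, 12.26 and 11.59 when treated. The groups of these 3 genes do not overlap. SLC7A5, a transporter of large neutral amino acids, differed by 0.89 and STC2, a secreted stanniocalcin, by 0.71, and both passed with 9 arrays at adjusted p of 0.031 and 0.030. The ATF4 transcript itself, which is regulated mainly in translation, was at 13.99, 13.85 and 13.87 against 13.83, 13.78 and 13.82 (−0.09, SE 0.12, adjusted p 0.76). The 14 measured cytosolic aminoacyl-tRNA synthetases, several of them known ATF4 targets, had a median of 0.02.

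The endoplasmic reticulum branch was near the background. Of 22 measured chaperones and unfolded protein response genes 2 lay wholly above and 2 wholly below the controls, with a median of −0.03 and no call in either fit. HSPA5, or BiP, the HSP70 of that compartment, differed by 0.03. ATF6, a stress sensor of its membrane, differed by 0.54. DNAJB9, a BiP co-chaperone, read 9.59, 9.50 and 9.54 in controls and 9.18, 9.07 and 9.16 when treated, a difference of −0.41 (SE 0.12, adjusted p 0.27).

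Immediate early genes are transcribed within minutes of many signals and mostly encode transcription factors. Of 26 measured 9 lay wholly above the controls and 0 below, with a median of 0.35, and 4 passed in the 9-array fit. ZFP36, or tristetraprolin, which destabilises cytokine mRNAs and is itself induced by glucocorticoids, went from 10.45, 10.36 and 10.38 to 12.06, 12.05 and 11.29, a difference of 1.40 (SE 0.23, adjusted p 0.14, and 0.045 with 9 arrays). MYC, a transcription factor of growth, went from 10.13, 10.38 and 9.43 to 11.24, 11.62 and 11.22, a difference of 1.38 (SE 0.27, adjusted p 0.16, and 0.0365 with 9 arrays). IER5, which cooperates with heat shock factor 1, differed by 0.97 (SE 0.21) and passed with 9 arrays at 0.045, and JUN, a subunit of AP-1, by 0.82 (SE 0.18), which did not, at 0.054. Of 15 measured dual-specificity phosphatases, which switch off MAP kinases, 6 lay wholly above and 0 below, and DUSP1 and DUSP5 passed in the 9-array fit.

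The 21 measured NF-kB targets and feedback genes had a median of 0.36, with 8 wholly above the controls, 0 below, and no call in either fit. TNFAIP3, or A20, an inhibitor in the NF-kB pathway, differed by 0.86 (SE 0.18, adjusted p 0.19, and 0.056 with 9 arrays). CXCL8, the chemokine interleukin 8, stood at 6.74, 6.75 and 7.45 in controls and between 7.74 and 8.16 when treated, a difference of 0.99 (SE 0.24, adjusted p 0.21). NFKBIA, which holds NF-kB in the cytoplasm, differed by 0.36. No inflammatory stimulus was given in these samples, so inhibition of an induced NF-kB response was not measured. IFIT1, an interferon-induced antiviral protein, was at 7.03, 7.21 and 7.38 in controls and at 5.60, 5.29 and 5.89 with 15d-PGJ2, wholly lower. Its difference of −1.62 (SE 0.20) had an adjusted p of 0.062 and passed with 9 arrays at 0.0093, while the 23 measured interferon-stimulated genes had a median of −0.10.

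**Figure D4:**
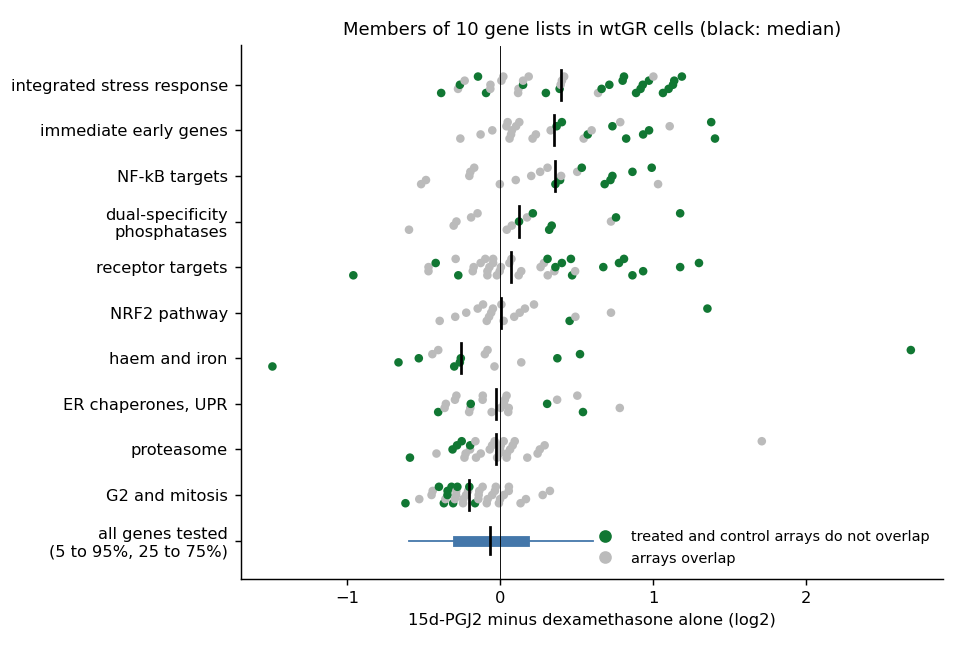
Treated minus control difference in log2 intensity for each measured member of 10 gene lists, 1 strip per list with its median in black, above a bar for all genes that spans their 5 to 95% and 25 to 75% ranges around a median of −0.07. Members whose treated and control arrays do not overlap are green. The integrated stress response has the highest median of these lists, 0.39, the NRF2 list is centred near 0 at 0.01, and HMOX1 stands alone at 2.68 among the haem and iron genes.

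Listed glucocorticoid receptor target genes were compared with dexamethasone present in both groups. Without an array that lacks dexamethasone, it was not measured which of them responded to it in these cells. Nor was the effect of 15d-PGJ2 without dexamethasone measured. Of 39 measured targets 12 lay wholly above the controls, 3 wholly below, and the median was 0.07. None was called in the 6 arrays, and 4 passed in the 9-array fit, all higher: DUSP1, KLF6, CEBPB and ERRFI1. Of 17 alternative settings of the processing, DUSP1 passed in 5, and the other genes named here in the 9-array fit alone. DUSP1, the phosphatase MKP-1 that mediates part of the anti-inflammatory action of glucocorticoids, went from 11.75, 11.70 and 11.83 to 12.89, 13.17 and 12.76, a difference of 1.18 (SE 0.15, adjusted p 0.071, and 0.0086 with 9 arrays). KLF6, a zinc finger transcription factor, went from 10.16, 10.42 and 10.62 to 11.26, 11.57 and 11.17, a difference of 0.93 (SE 0.18, and an adjusted p of 0.043 with 9 arrays). ERRFI1, or MIG6, an inhibitor of the EGF receptor, went from 9.94, 9.96 and 10.01 to 10.69, 10.72 and 10.51, a difference of 0.67 (SE 0.13, and an adjusted p of 0.029 with 9 arrays). CEBPB, a transcription factor also on the integrated stress response list, went from 12.20, 12.42 and 12.68 to 13.14, 13.41 and 13.17 (0.81, SE 0.17, and an adjusted p of 0.045 with 9 arrays). In all 4 the groups do not overlap. DUSP1, KLF6 and CEBPB also respond to stress and mitogens, as does GADD45A, a growth arrest gene that differed by 1.30 (SE 0.35) and did not pass, at 0.079 with 9 arrays.

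The targets most often used to read receptor activity were nearly level. FKBP5, an HSP90-bound immunophilin that feeds back on the receptor, stood at 11.79, 11.78 and 11.46 in controls and at 11.67, 11.67 and 11.54 with 15d-PGJ2 (adjusted p 0.91). TSC22D3, or GILZ, a mediator of anti-inflammatory action, read 14.27, 14.01 and 14.05 against 14.11, 14.03 and 14.18. SGK1, a kinase that controls sodium transport, read 10.27, 10.35 and 10.40 against 10.25, 10.32 and 10.37. The groups of all 3 overlap, and their differences were −0.05, −0.00 and −0.02, with signs that turned under other settings. With the mean of its probes in place of the brightest one, TSC22D3 differed by 1.02. KLF9, a transcription factor, differed by 0.06, PDK4, a kinase that restrains pyruvate oxidation, by 0.12, and ZBTB16, a transcriptional repressor, by 0.49, none called. PER1, a clock gene, differed by −0.47 and CRISPLD2, a secreted protein, by −0.96 (SE 0.28, adjusted p 0.26), the latter with treated arrays at 6.37, 5.76 and 6.68 against controls at 6.94, 7.19 and 7.56. Its treated arrays lay wholly below the controls, but the fit did not call it.

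**Figure D5:**
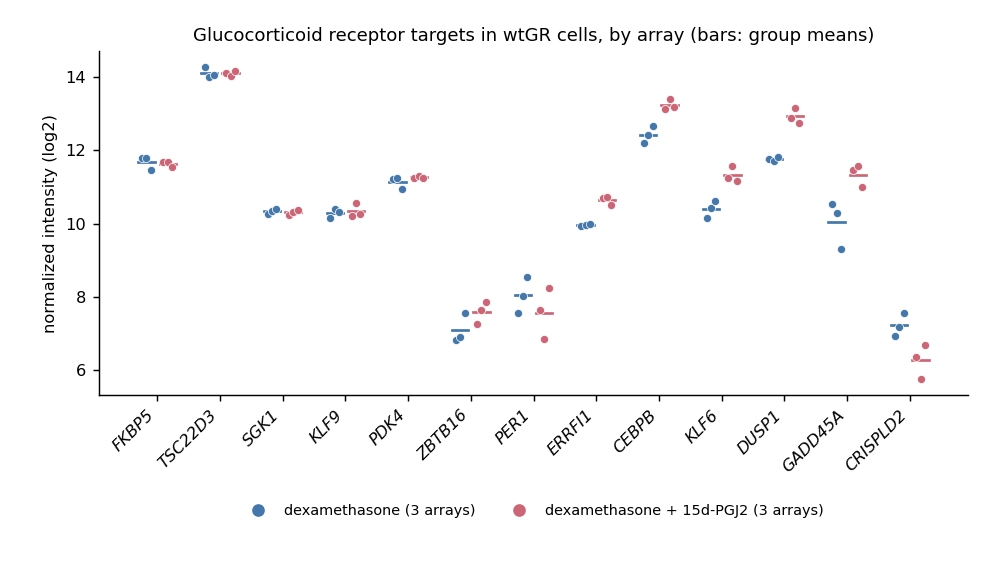
Normalized log2 intensity on each wtGR array for 13 glucocorticoid receptor target genes, controls and treated arrays as separate points. DUSP1 and ERRFI1 show treated arrays wholly above controls, FKBP5, TSC22D3 and SGK1 show groups on top of each other, and CRISPLD2 shows treated arrays wholly below. Levels compare arrays within a gene only.

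The receptor itself differed little. The kept probe of NR3C1, the glucocorticoid receptor gene, was at 5.61, 5.75 and 6.18 in controls and at 6.06, 5.88 and 6.09 when treated, overlapping groups with a difference of 0.16 (SE 0.18, adjusted p 0.72). It is a dim probe, and the other NR3C1 probes were detected on 1 and 0 arrays. The labels do not say whether a probe reads the introduced receptor. The list of the receptor and its co-regulators, which counts the receptor genes NR3C1 and NR3C2 as members, had 18 measured genes. Their median was 0.03, with 3 wholly above, 3 wholly below and no call in either fit. HDAC3, a deacetylase of corepressor complexes, differed by −0.48 (SE 0.13, adjusted p 0.25) and GMEB2, a modulator of receptor activity, by 0.46. The 14 measured genes of the SUMO machinery, which attaches the small modifier that GR3KR cannot accept at its mutated sites, had a median of 0.02 and no call. PIAS4, a SUMO ligase, read 9.71, 9.84 and 9.95 in controls and 10.50, 10.62 and 10.28 when treated, a difference of 0.63 (SE 0.15, adjusted p 0.21, and 0.055 with 9 arrays).

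PPARγ is the nuclear receptor first tied to 15d-PGJ2, and its gene and targets were near the background. PPARG stood at 10.60, 10.53 and 10.85 against 10.77, 10.87 and 10.75, overlapping groups with a difference of 0.14 (SE 0.14, adjusted p 0.69). The 23 measured PPAR receptors and targets had a median of −0.05, 2 wholly above and 2 wholly below the controls, and no call. PLIN2, a lipid droplet coat protein, differed by 0.58 (SE 0.17, adjusted p 0.27) and PPARGC1A, a coactivator of mitochondrial genes, by 0.63. The 15 measured genes of prostaglandin synthesis, transport and receptors had a median of −0.16 and no call, with PTGES2, a prostaglandin E synthase, at 0.61 and HPGD, the dehydrogenase that inactivates prostaglandins, at −0.51. The genes of the 18 proteins reported to bind 15d-PGJ2 covalently had a median of 0.23, 5 wholly above and 1 wholly below, with no call.

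Cell division and metabolic genes gave few calls. The 39 measured G2 and mitosis genes had 10 (25.6%) wholly below the controls, against 14.1% of all genes, and 0 above. Their median was −0.20, with BUB1B, a spindle checkpoint kinase, at −0.62. Of 33 S phase genes, PCNA, the sliding clamp of DNA replication, read 12.13, 11.67 and 11.92 against 11.11, 11.05 and 11.17, a difference of −0.80 that passed with 9 arrays at 0.034. A second PCNA probe differed by 1.24, so the direction of PCNA is uncertain. Of 22 canonical histone genes, which normally lack polyadenylated transcripts, H4C8 went from 6.33, 6.67 and 6.37 to 7.86, 7.83 and 7.61, a difference of 1.31 (SE 0.16, adjusted p 0.062, and 0.0067 with 9 arrays). All 8 measured genes of the metallothionein list had negative differences, with a median of −0.31, and 5 of them were detected on all 6 arrays. Of all genes 41.3% had positive differences. The list holds metallothioneins, metal-binding proteins that glucocorticoids also induce, and the genes MTF1 and SLC30A1, which are not metallothioneins. MT1F had groups apart at 9.67, 9.88 and 10.10 against 9.23, 8.98 and 9.32 (−0.71, SE 0.17, adjusted p 0.21). The 21 sterol genes had a median of −0.16, with the synthesis enzymes SQLE at −0.58 and NSDHL at −0.61, neither called. Of 21 p53 targets, SESN1, a stress sensor upstream of mTORC1, differed by −0.79 (SE 0.16) and passed with 9 arrays at 0.039. The 67 cytosolic ribosomal protein genes had a median of 0.01 and the 19 glycolytic enzymes and transporters one of −0.00, with the glucose transporter SLC2A3 at 0.71 (SE 0.16), which passed with 9 arrays at 0.045. In bulk samples, fewer cells in a state and less RNA per cell cannot be told apart.

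Other genes that passed in the 9-array fit belong to none of these lists. Higher were DEDD2, a death effector domain protein, at 1.62 (SE 0.19) from 11.04, 10.86 and 10.90 to 12.70, 12.78 and 12.19, and THSD1, a thrombospondin-repeat membrane protein, at 1.92 (SE 0.21) from 6.73, 7.15 and 6.61 to 8.66, 9.04 and 8.54. Their adjusted p with 9 arrays was 0.0064 and 0.0036, and a second THSD1 probe differed by 1.76. Lower were CTDSP1, a small phosphatase that acts on RNA polymerase II and represses neuronal genes, at −1.24 (SE 0.14) from 8.61, 8.61 and 8.76 to 7.36, 7.33 and 7.58, with an adjusted p of 0.0036 with 9 arrays. SHC4, an adaptor of receptor tyrosine kinases, differed by −1.35, NTN4, a secreted netrin, by −1.08, and SNORA12, a small nucleolar RNA, by −1.95. IDH1, the cytosolic isocitrate dehydrogenase that makes NADPH, read 10.14, 10.15 and 10.14 against 8.93, 8.89 and 9.20, a difference of −1.13, but a second IDH1 probe differed by 0.22.

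The same contrast in the GR3KR cells shows where the wtGR response differed between lines, tested as the interaction of 15d-PGJ2 and line over all 12 arrays. It called 2971 genes (24.9%), but 22 (0.185%) when GR3KR 15d-PGJ2 arrays 1 and 2, which had the fewest detected probes of the series, were left out. HSPA6 differed by 3.45 in GR3KR cells, 2.29 log2 units less than in wtGR cells, and HMOX1 by 1.58. HSPA1A differed by 2.52 and HSPA7 by 2.03. That second fit has 1 treated GR3KR array, assumed to vary like the other groups. The DNAJB1 term, GR3KR minus wtGR, was −5.42 (adjusted p 0.017) with all arrays and −3.03 (adjusted p 0.027) against that 1 array. HSPA6 and HMOX1 were called with all 12 arrays, at adjusted p of 0.0088 and 0.018, and not without those 2 arrays, at 0.065 and 0.085, although the terms were of like size, −2.24 and −1.10.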

How the data were processed

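Total RNA was labelled with biotin and hybridised to Illumina bead arrays with 47312 probes. The deposited table of the authors holds, per the file headers, a linear intensity and a detection p-value for each probe on each array, not normalized. A second deposited table, used as an alternative, holds the authors' log2 values, for which the submitters' processing notes name lumi; its background and normalization steps are not given in the sources used here. The intensities of the 6 wtGR arrays were background-corrected on the detection p-values, quantile-normalized and log2-transformed by limma's neqc (version 3.58.1, R 4.3.3, offset 16), which understates the folds of dim genes. Probes with a detection p under 0.01 on at least 3 arrays were kept (19799). Names came from the platform annotation (30107 probes with 1 symbol, 8 with several), and of the 15687 kept probes with 1 symbol, the probe with the highest mean was used for each of 11913 genes. Where a gene was undetected on all arrays of a group, its fold is a bound.

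Treated and control arrays were compared with limma's lmFit and eBayes (4 residual degrees of freedom, moderated by 2.70 prior degrees), 2-sided, with Benjamini-Hochberg adjustment over all genes. The median SE was 0.197 log2, and the 3 arrays per group limit the precision. The 9-array fit added the GR3KR dexamethasone arrays to the normalization and the estimate of spread. The fit was run on simulated arrays with known changes. Their noise was independent between arrays, whereas some of the real arrays deviated together, so the simulation does not cover that feature. Named genes were, for each list, up to 4 called members (in lists without a call, up to 2 of lowest p), and up to 12 called genes per direction, plus HSPA6, HMOX1 and NR3C1. Other named genes were chosen after their values were seen. The comparison and the 40 gene lists (956 genes) were chosen with earlier results of these data known. Promoters came from RefSeq (GRCh38.p14), matched by symbol. Alternatives were other normalizations, filters, probe rules, array sets, array weights, the replicate number as a block and leaving out each array.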

Additional observations from a re-analysis of the deposited data

Results flagged for a closer look

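The 15d-PGJ2 effect was compared between the lines by the interaction term of a 12-array limma fit, which called 2971 genes (24.9%). Of the 53 named genes called with 6 or 9 arrays, this term called 34. HSPA1A, 1 of these, was undetected on all wtGR controls, so its effect there is a bound and its term is not given. Values are the GR3KR effect minus the wtGR effect in log2. The 53 genes were chosen by that same wtGR effect on the same arrays. The choice itself therefore favours terms opposite in sign to the wtGR effect, and a higher count of calls. On the GR3KR 15d-PGJ2 arrays 15223, 14207 and 17032 probes were detected, against 17959 to 19950 on the others. Without GR3KR 15d-PGJ2 arrays 1 and 2 the same term called 22 genes (0.185%), but that fit has 1 array in the group, assumed to vary like the others. The part of these arrays in the differences was otherwise not tested.

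Among the chaperones the term was −2.29 for HSPA6 (SE 0.32, adjusted p 0.0088), −2.45 for HSPA7, −5.42 for DNAJB1 (SE 1.07, adjusted p 0.017), −4.49 for HSPA1B, −1.79 for HSPH1, −2.31 for STIP1 and −1.38 for BAG3. HSPA6 in GR3KR cells went from 5.91, 6.54 and 5.92 to 9.87, 9.31 and 9.54, a clear separation but a smaller difference, 3.45, than in wtGR cells. DNAJB1 in GR3KR cells was at 9.61, 9.85 and 9.72 with dexamethasone and at 6.55, 7.38 and 10.52 with 15d-PGJ2, so that its treated arrays fall on both sides of the controls. Against the array at 10.52 alone the DNAJB1 term was −3.03 (adjusted p 0.027) and the HSPA6 term −2.24 (adjusted p 0.065).

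Other genes higher with 15d-PGJ2 in wtGR cells had terms of −1.20 for HMOX1, −3.44 for MAFG, −1.23 for DUSP1, −1.80 for ZFP36, −1.24 for H4C8, −3.95 for MYC, −2.50 for IER5, −1.10 for SLC7A5, −1.08 for DEDD2, −3.17 for THSD1, −1.17 for NKX2-2 and −1.09 for HOXD11. STC2, also higher in wtGR cells, had a positive term, 0.63. Genes lower in wtGR cells had positive terms: 1.19 for MIR503HG, 1.40 for KCNA5, 2.14 for IFIT1, 1.04 for SESN1, 1.04 for PCNA, 1.57 for SFRP2, 1.81 for EPHB1, 0.93 for SLC40A1, 1.99 for SHC4, 1.51 for FZD4, 1.61 for FZD6, 1.55 for CPOX and 2.45 for SNORA12. These terms are from all 12 arrays. Without GR3KR 15d-PGJ2 arrays 1 and 2, which leaves 1 array in that group, all 33 listed terms kept their sign. Their sizes changed unevenly: MYC at −1.19, IER5 at −1.02, MAFG at −1.52 and MIR503HG at 0.65 were smaller. HMOX1 at −1.10 was of like size, while DEDD2 at −1.36 and SLC40A1 at 1.26 were larger. Groups of 3 arrays were too small for a check of single arrays that stand apart.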

How the results depend on the processing

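All 9 calls were shared by the 9-array fit (135 genes, 61 higher and 74 lower), array weights (30), median scaling (19), cyclic loess (27), no background correction (20), the deposited log2 matrix (28) and the replicate block (22, 13 higher and 9 lower). Whether the labels' numbers pair the arrays is uncertain. Same-numbered arrays deviated together for numbers 1 and 3 (r 0.68 each) but not for number 2 (−0.12). Control array 1 and treated array 2 also deviated together (r 0.67). With 12 arrays 27 genes were called (18 higher and 9 lower; 8 shared), and with detection required on all 6 arrays 23 (8 shared). No filter, the mean of a gene's probes and a fit per probe each gave 6, the last chosen after seeing the data. Leaving out 1 array gave 5 to 8. HSPA6, HSPA7, HSPA1A, DNAJB1 and HMOX1 were called each time, although HSPA6 was lost with the mean of probes (adjusted p 0.0771). Many genes passed in the 9-array fit alone out of the 17 alternative settings. Among them were PPP1R15A, SLC7A5, ZFP36, MYC, IER5, DUSP5, KLF6, CEBPB, ERRFI1, CPOX, PCNA, SESN1 and SLC2A3. DDIT3 passed in 6 settings and DUSP1 in 5. The difference between lines fell from 2971 genes to 22 without GR3KR 15d-PGJ2 arrays 1 and 2, which leaves 1 array in that group. With the deposited matrix 18 of 118 named genes moved by over 1.5 times, HSPA6, HSPA7, HSPA1A, HMOX1, MIR503HG and KCNA5 among the called ones. Over the named genes, the settings other than leaving out an array kept direction and call in 1120 comparisons, added a call in 154, lost one in 7 and turned the sign in 10; leaving out an array gave 674, 3, 19 and 12. Signs turned for genes near 0 and where probes disagree: with the mean of probes PSMD6 became 0.0878, PCNA 0.221, TSC22D3 1.02 and SGK1 0.027; with median scaling TSC22D3 0.19 and NQO1 0.062; with loess TSC22D3 0.13, SGK1 0.022 and NQO1 0.035; and with the deposited matrix TSC22D3 0.058. With 1 array left out the lowest and highest differences were −0.16 and 0.0070 for FKBP5, −0.054 and 0.080 for TSC22D3, −0.059 and 0.0092 for SGK1, −0.053 and 0.13 for KLF9, −0.34 and 0.12 for NQO1, and −0.12 and 0.15 for HSPA5. The cause was not tested. The median of all genes moved by under 0.1 under these scalings.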

Other observations

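HSPA1A differed between the lines before 15d-PGJ2. With all 12 arrays normalized together, its probe read 4.54, 4.53 and 4.47 in wtGR cells given dexamethasone alone, where it was not detected, and 9.89, 10.15 and 10.10 in GR3KR cells given the same. HSPA1B, whose coding sequence is nearly the same, had overlapping levels in the lines, 11.05, 10.11 and 9.78 against 11.30, 9.89 and 10.71. No cause of this difference was tested.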
